A study of Caenorhabditis elegans with 6 samples.

Results

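miR-50-5p, miR-62 and miR-90-3p are 3 microRNAs (miRNAs) of the nematode Caenorhabditis elegans that are grouped as 1 seed family. They were taken by name from the deposited count files of whole worms, where they are 3 of 437 listed mature miRNAs. The name miR-62 carries no arm suffix in the files. There were 3 libraries of wild-type N2 worms exposed as L4 larvae to cadmium chloride at 60 µmol/L, and 3 libraries of untreated N2 control worms. All worms grew on nematode growth medium with OP50 bacteria, and the labels give 20 °C for the exposure and no exposure time. The libraries are of whole individuals, so fewer cells expressing a miRNA and less of it per cell cannot be told apart. The labels do not say whether same-group libraries came from separate cultures, and p-values then measure only the spread between these libraries.

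A miRNA guides an Argonaute protein to messenger RNAs, mainly through its seed, the bases from position 2 to 8 counted from its 5′ end. miRNAs with the same seed can therefore pair with overlapping sets of targets, and in animals the seed of this family is shared with miR-190. Most miRNAs are cut from a hairpin by Drosha and then by Dicer. A mirtron skips the Drosha step, because its hairpin is a short intron that the spliceosome releases and that is debranched before Dicer cuts it. miR-62 is a mirtron, so the family joins products of both routes.

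Each member lay in an intron of a protein-coding gene and on that gene's strand, in the Ensembl annotation of the WBcel235 genome. The mir-50 hairpin (chromosome I, 1738635 to 1738733, plus strand) is 99 nt long and sits in a 299-nt intron found in 5 of 7 annotated transcripts of tln-1, which encodes talin, a linker between integrins and actin. The mir-90 hairpin (chromosome III, 8873987 to 8874084, minus strand) is 98 nt long and sits in a 4047-nt intron of K01F9.2. The mir-62 hairpin (chromosome X, 12692608 to 12692665, plus strand) is 58 nt long. It has the same first and last base as an intron of ugt-50, a gene of the UDP-glucuronosyltransferase family, and all 5 annotated ugt-50 transcripts contain that intron. Of the 240 hairpins whose names could be matched, 8 span a whole intron, with each end within 2 nt of the intron's end. A further 57 lie inside an intron on the host's strand.

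The mature products differ in which arm they use. miR-50-5p (24 nt, 1738650 to 1738673) lies on the 5′ arm, with 15 nt of hairpin before it. miR-90-3p (23 nt, 8874001 to 8874023) lies on the 3′ arm, with 14 nt of hairpin after it. The only annotated product of mir-62 (22 nt, 12692644 to 12692665) lies on the 3′ arm, and its last base is the last base of the ugt-50 intron.

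**Figure D1:**
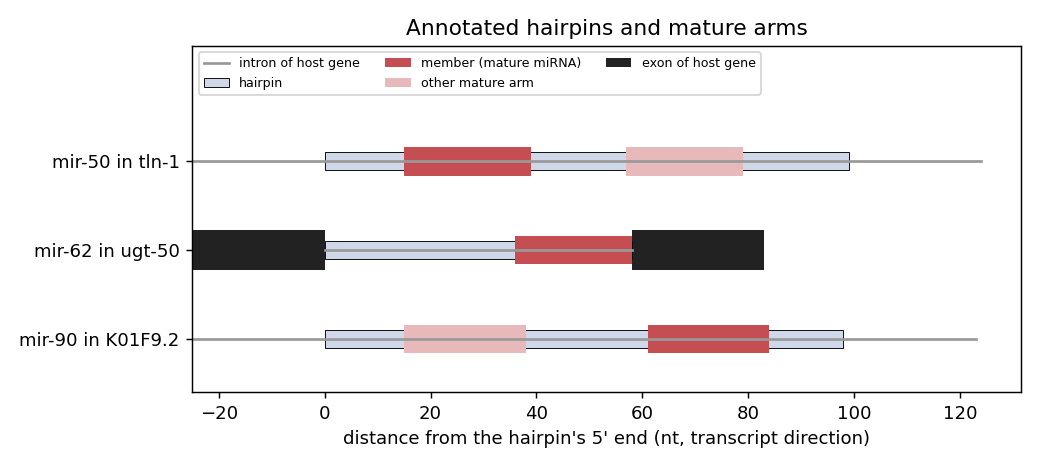
Annotated mir-50, mir-62 and mir-90 hairpins drawn to scale in the direction of transcription, with distance from the hairpin's 5′ end in nt on the x axis and the flanks cut at 25 nt. The mir-62 hairpin fills the ugt-50 intron from exon to exon, while the mir-50 and mir-90 hairpins have intron on both sides.

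The 6 libraries held 1640693 to 3917414 counts over all listed miRNAs. Levels below are in CPM, counts scaled to a library total of 1000000, with totals adjusted by the trimmed mean of M-values method (TMM). Counts are of reads of mature miRNAs, so no length scaling applies. How evenly the library kit captured different miRNAs was not measured, and levels of different members compare reads and not molecules. No miRNA of the files had the same counts as a member in all 6 libraries, and how reads matching several miRNAs were counted is not given in the sources used here. Outside the family, miR-44-3p and miR-45-3p had the same mean level (67734 CPM each) and the same log2 fold change (0.57 each). Whether their reads were entered under both names or divided was not tested, and the library totals depend on it.

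The members spanned a wide range of abundance. By mean TMM-scaled CPM over the 6 libraries, miR-90-3p ranked 12 of the 208 tested miRNAs, miR-50-5p ranked 26 and miR-62 ranked 88. The order miR-90-3p, miR-50-5p, miR-62 held in each library, and no level of one member reached the range of the next.

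miR-90-3p, the most abundant member, was at 15174, 16431 and 19554 CPM in cadmium libraries 1 to 3, against 19342, 12772 and 13784 CPM in control libraries 1 to 3. The groups overlapped, since control library 1 lay above cadmium libraries 1 and 2. The mean was 17053 ± 2255 CPM in cadmium libraries and 15299 ± 3538 CPM in control libraries (SD, n = 3 each).

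miR-50-5p was at 8586, 6653 and 8377 CPM in cadmium libraries 1 to 3, against 9065, 8694 and 9239 CPM in control libraries 1 to 3. All cadmium libraries lay below all control libraries, by a narrow margin for cadmium library 1, and cadmium library 2 was the lowest of all. Groups that did not overlap were seen for 38.5% of all tested miRNAs (20.7% in the lower direction). The mean was 7872 ± 1061 CPM in cadmium libraries and 8999 ± 279 CPM in control libraries (SD, n = 3 each).

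miR-62 was at 140, 86.9 and 123 CPM in cadmium libraries 1 to 3, against 129, 138 and 161 CPM in control libraries 1 to 3. These levels rested on 493, 294 and 275 counts in cadmium libraries and on 242, 357 and 636 counts in control libraries. The groups overlapped, and cadmium library 2 was again the lowest. The mean was 117 ± 27.0 CPM in cadmium libraries and 143 ± 16.6 CPM in control libraries (SD, n = 3 each).

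**Figure D2:**
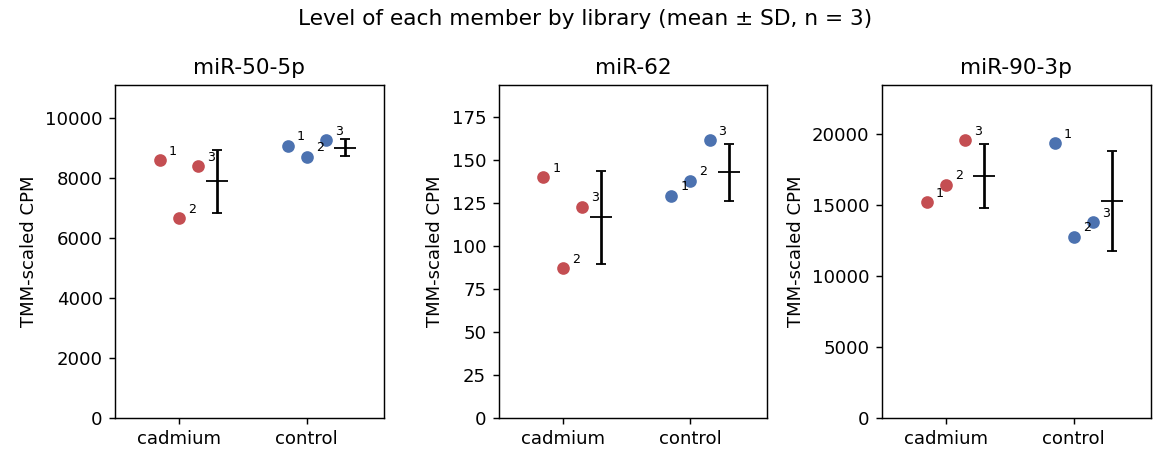
TMM-scaled CPM of miR-50-5p, miR-62 and miR-90-3p in each cadmium and control library (points, with the replicate number), with the group mean ± SD (n = 3) beside them and each y axis starting at 0. Cadmium library 2 is the lowest point for miR-50-5p (6653 CPM) and miR-62 (86.9 CPM), and for miR-90-3p the points of both groups are interleaved.

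The comparison of the groups asked whether the level of the family differed after cadmium exposure. By edgeR's quasi-likelihood test with Benjamini-Hochberg adjustment, 0 of the 3 members were called at a threshold of 0.05, and 0 had an unadjusted p under 0.05. In the same fit 45 of 208 miRNAs were called (21.6%). Those higher under cadmium were 9.62% of the tested miRNAs and those lower 12%, and 35.1% had an unadjusted p under 0.05. DESeq2's Wald test, run as an alternative, called 60 of the 208 miRNAs (28.8%) and 0 of the 3 members.

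miR-50-5p had a log2 fold change of −0.19 (SE 0.17, edgeR adjusted p 0.46), or 0.875-fold in cadmium relative to control libraries with a 95% confidence interval of 0.673 to 1.14. For miR-62 the log2 fold change was −0.30 (SE 0.25, edgeR adjusted p 0.431), or 0.815-fold with an interval of 0.56 to 1.18. For miR-90-3p it was 0.16 (SE 0.20, edgeR adjusted p 0.609), or 1.11-fold with an interval of 0.818 to 1.52. The intervals do not show that the levels were equal, but each lies within a change of 1 on the log2 scale in either direction.

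The members' median log2 fold change was −0.19, against a median of 0.0039 and quartiles of −0.42 and 0.37 over the 208 tested miRNAs. By size of change, 20.2% of the tested miRNAs had a smaller log2 fold change than miR-50-5p in either direction, 36.1% a smaller one than miR-62 and 17.8% a smaller one than miR-90-3p.

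**Figure D3:**
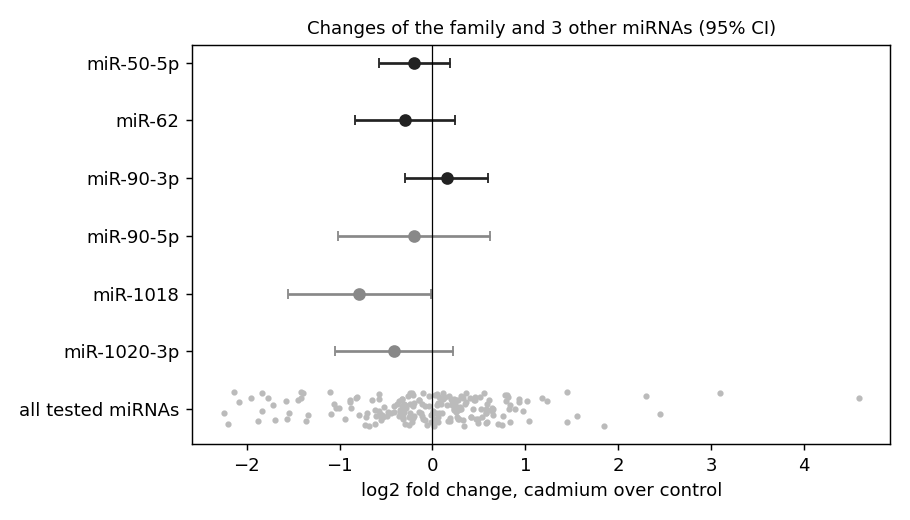
Log2 fold changes of cadmium over control libraries with 95% confidence intervals from edgeR for the family members (black) and for miR-90-5p, miR-1018 and miR-1020-3p (grey), above the changes of all 208 tested miRNAs (small points, spread vertically for legibility). The intervals of miR-50-5p, miR-62 and miR-90-3p all include 0.

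The sign for miR-90-3p depended on the scaling. With library totals in place of TMM its log2 fold change was −0.058 (edgeR adjusted p 0.901), while the median of all tested miRNAs moved to −0.16. Relative to the median of all tested miRNAs, miR-90-3p stood at 0.15 with TMM and 0.10 with library totals. On the same relative scale, miR-50-5p stood at −0.20 and −0.22 and miR-62 at −0.30 and −0.31.

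The separation of the groups also moved with the scaling. With library totals miR-62 was at 77.7 to 146.98 CPM in cadmium libraries and 147.08 to 162 CPM in control libraries. These groups just failed to overlap. The share of tested miRNAs whose groups separate with library totals was not computed. Under that scaling changes leaned lower in general (median −0.16, 30 of 39 calls lower). Whether the separation of miR-62 came with this lean was not tested. With the upper quartile miR-50-5p was at 7258 to 9091 CPM in cadmium libraries and 8039 to 9590 CPM in control libraries, and its groups overlapped.

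Without cadmium library 2, the log2 fold change was −0.081 for miR-50-5p (edgeR adjusted p 0.769) and −0.12 for miR-62 (edgeR adjusted p 0.762). Without control library 1, that of miR-90-3p was 0.36 (edgeR adjusted p 0.215), and without control library 2 it was 0.020 (edgeR adjusted p 0.974).

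The spread between replicates of the abundant members was far above counting error. The coefficient of variation of miR-90-3p was 13.2% in cadmium libraries and 23.1% in control libraries, while its counts of 33061 to 55602 would give at most 0.55% from counting alone. For miR-50-5p it was 13.5% in cadmium libraries and 3.09% in control libraries, with at most 0.768% from counting. For miR-62 it was 23.2% in cadmium libraries and 11.6% in control libraries, with 3.97% to 6.43% from counting. These counting figures leave out amplification, since the labels name no molecular identifiers. The biological coefficient of variation that edgeR estimated was 17.2% for miR-50-5p, 22.2% for miR-62 and 19.5% for miR-90-3p, against 23.1% in common over all tested miRNAs. The values that edgeR's trend gave at their abundance were 20.3%, 24.6% and 20.2%, in the same order.

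Summed, the 3 members made up 2.51%, 2.07% and 2.43% of all miRNA counts in cadmium libraries 1 to 3, against 3.26%, 2.30% and 2.33% in control libraries 1 to 3. The highest share, that of control library 1, goes with its high miR-90-3p level. The mean was 2.34 ± 0.234% in cadmium libraries and 2.63 ± 0.542% in control libraries (SD, n = 3 each), and the groups overlapped. On the TMM scale the sum was 25042 ± 2634 CPM in cadmium libraries and 24442 ± 3634 CPM in control libraries, so the direction of this small difference depended on the scaling.

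The make-up of the family was dominated by miR-90-3p. It held 63.5%, 70.9% and 69.7% of the family's counts in cadmium libraries 1 to 3, against 67.8%, 59.1% and 59.5% in control libraries 1 to 3. miR-50-5p held 35.9%, 28.7% and 29.9% in cadmium libraries, against 31.8%, 40.2% and 39.9% in control libraries. miR-62 held 0.375% to 0.585% in cadmium libraries and 0.453% to 0.696% in control libraries. The groups overlapped for all 3 shares. In each, cadmium library 1 lay within the range of the control libraries, and control library 1 within that of the cadmium libraries.

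Ratios between members within a library do not depend on scaling, and they tested whether the members responded differently. There were 2.19 ± 0.373 reads of miR-90-3p per read of miR-50-5p in cadmium libraries and 1.70 ± 0.377 in control libraries. The log2 ratio was higher by 0.37 under cadmium (SE 0.23), with p = 0.2 in an exact two-sided permutation test and 0.3 after Benjamini-Hochberg adjustment over the 3 pairs. With 3 libraries against 3, that test cannot go below 0.1.

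For each read of miR-62, there were 152 ± 40.7 reads of miR-90-3p in cadmium libraries and 109 ± 35.2 in control libraries. The log2 ratio of miR-62 to miR-90-3p changed by −0.49 (SE 0.35), with an exact permutation p of 0.2 and an adjusted p of 0.3. There were 68.7 ± 7.60 reads of miR-50-5p per read of miR-62 in cadmium libraries and 63.5 ± 6.45 in control libraries. The log2 ratio of miR-62 to miR-50-5p changed by −0.11 (SE 0.12), with an exact permutation p of 0.5 before and after adjustment. For no pair did the test reach the smallest p that it allows.

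**Figure D4:**
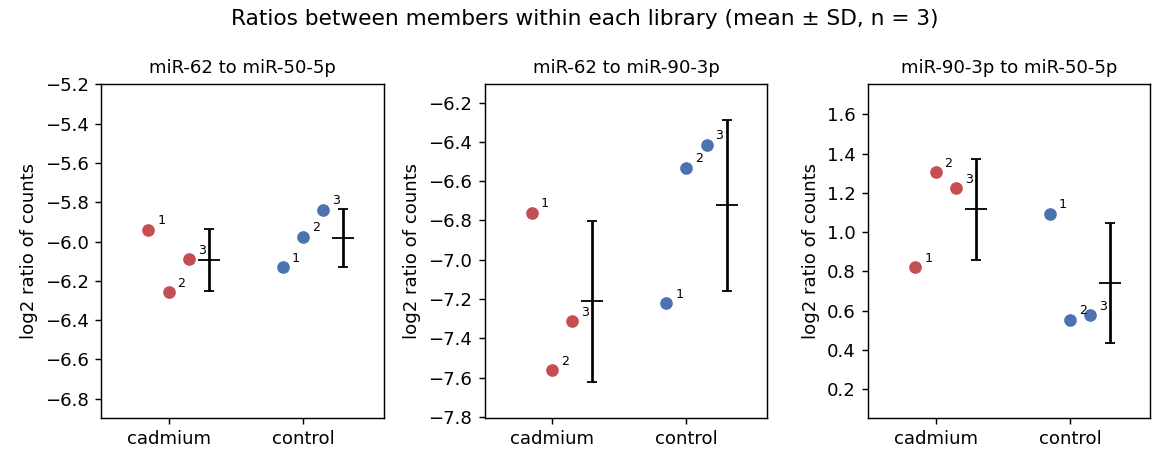
Log2 ratios of the counts of 2 members within each cadmium and control library (points, with the replicate number) and their group mean ± SD (n = 3), on y axes of equal span. The ratio of miR-62 to miR-50-5p spans −6.26 to −5.84 over the 6 libraries, a narrower range than either ratio that involves miR-90-3p.

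Across the 6 libraries, miR-50-5p and miR-62 followed each other and miR-90-3p did not follow them. The correlation of log2 levels of miR-50-5p and miR-62 was r = 0.94 (Spearman's rho 0.77), and among the 208 tested miRNAs each was the one most like the other. The correlation after the group means were removed was 0.92. With the group means kept, the correlation was 0.96 with library totals and 0.97 with the upper quartile. It rested on few libraries, however. Without cadmium library 2 it was 0.67, where miR-62 ranked 48 in likeness to miR-50-5p, and without both cadmium library 2 and control library 3 it was 0.18.

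miR-90-3p had r = −0.15 with miR-50-5p and r = −0.40 with miR-62. These values are unstable, since with library totals they were 0.31 and 0.080, and with the upper quartile −0.89 and −0.92. Libraries share a scaling factor for all miRNAs, which enters each of these correlations.

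**Figure D5:**
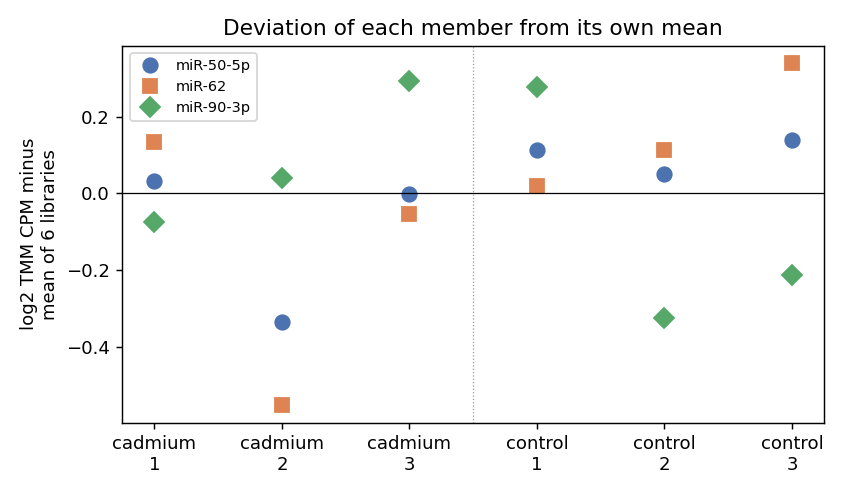
Log2 TMM-scaled CPM of each member minus its own mean over the 6 libraries, for cadmium libraries (left) and control libraries (right). In cadmium library 2, miR-62 (−0.55) and miR-50-5p (−0.33) are both low while miR-90-3p (0.041) is near its mean.

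The next miRNAs in likeness to miR-50-5p were miR-233-3p (r = 0.90) and miR-799 (r = 0.87, on 3 to 13 counts per library). Those for miR-62 were lsy-6-3p (r = 0.84), which in the worm sets the left-right difference of a pair of taste neurons, and miR-2208b-5p (r = 0.83). Cadmium library 2 was the lowest for miR-233-3p (268 CPM), miR-799 (0.887 CPM), lsy-6-3p (34.3 CPM) and miR-2208b-5p (3.84 CPM) too. Their r values without that library are not given here. The levels most like miR-90-3p were those of miR-357-3p (r = 0.96), miR-84-3p (r = 0.94) and miR-1829b-3p (r = 0.85, on 9 to 17 counts). Each r covers 6 libraries, and of these miRNAs miR-2208b-5p passed the test between groups (log2 fold change −1.39, edgeR adjusted p 0.0206).

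The miRNAs next to each member in abundance were read at a like depth. Around miR-90-3p, miR-35-3p had a log2 fold change of −1.95 (SE 0.26, edgeR adjusted p 0.000392) and miR-48-5p one of 0.61 (SE 0.20, edgeR adjusted p 0.0521). Around miR-50-5p, miR-39-3p had −2.24 (SE 0.25, edgeR adjusted p 0.000126), and miR-54-3p had −0.00043 (SE 0.18, edgeR adjusted p 0.998). Around miR-62, miR-794-5p had 0.98 (SE 0.29, edgeR adjusted p 0.0362) and miR-75-3p −0.31 (SE 0.28, edgeR adjusted p 0.46). Of these 6 neighbours 3 were called, against 21.6% of all tested miRNAs, and miR-35-3p and miR-39-3p belong to the same seed family.

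The opposite arm of a hairpin is usually degraded as the passenger strand. miR-50-3p, the opposite arm of miR-50-5p, had 4, 0 and 4 counts in cadmium libraries 1 to 3, against 3, 3 and 9 counts in control libraries 1 to 3. It was too low to be tested. It made up 0.0132% of the hairpin's counts in cadmium library 1 (95% exact Clopper-Pearson interval 0.0036% to 0.0338%, covering counting error only) and 0.0213% in cadmium library 3 (0.00581% to 0.0546%). In cadmium library 2 it had 0 of 22515 counts, for which the interval ends at 0.0164% and 3 counts would be a share of 0.0133%. In control libraries it made up 0.0133% to 0.0247%, with interval bounds from 0.00275% to 0.0516%. The intervals of all 6 libraries overlap, and at 0 to 9 counts a difference between the groups was not detectable.

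miR-90-5p, the opposite arm of miR-90-3p, was at 54.2, 44.0 and 31.3 CPM in cadmium libraries 1 to 3, against 76.9, 26.7 and 46.9 CPM in control libraries 1 to 3. The control libraries spanned the whole range of the cadmium libraries. Its log2 fold change was −0.20 (SE 0.37, edgeR adjusted p 0.715), and it was 0.23 without control library 1. It made up 0.16% to 0.356% of the hairpin's counts in cadmium libraries, with interval bounds from 0.124% to 0.41%. In control libraries it made up 0.208% to 0.396%, with bounds from 0.162% to 0.466%. These intervals too cover counting error only, and those of control library 1 (0.334% to 0.466%) and control library 2 (0.162% to 0.264%) do not overlap although both are controls. The mir-90 hairpin was therefore less one-sided than the mir-50 hairpin in every library.

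The log2 ratio of miR-90-5p to miR-90-3p was −8.65 ± 0.58 in cadmium libraries and −8.35 ± 0.48 in control libraries (SD, n = 3 each). The change of −0.30 (SE 0.40) had an adjusted p of 0.835 in limma over 63 hairpins, of which 2 passed (3.17%). No arm ratio could be computed for mir-62, for which the files list a single product, and none was tested for mir-50.

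miR-62 was set beside 3 hairpins described as mirtrons in the worm literature. Among the listed products of mir-1018, mir-1019 and mir-1020, miR-1020-3p and miR-1018 had enough counts to be tested. Ensembl places the mir-1019 and mir-1020 hairpins exactly on introns of dyf-5 and T16G12.1, and places the mir-1018 hairpin in no annotated intron of a protein-coding gene.

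miR-1020-3p was at 51.3, 39.3 and 25.9 CPM in cadmium libraries 1 to 3, against 45.9, 52.2 and 57.9 CPM in control libraries 1 to 3. The groups overlapped through cadmium library 1 (log2 fold change −0.42, SE 0.29, edgeR adjusted p 0.347). The log2 fold change was −0.20 without cadmium library 3 and −0.63 without cadmium library 1, with edgeR adjusted p-values from 0.199 to 0.697 over the 6 fits that each left out 1 library. miR-1018 was at 7.94, 4.43 and 4.47 CPM in cadmium libraries, against 9.61, 7.73 and 11.9 CPM in control libraries, on 10 to 47 counts per library. Its groups also overlapped (log2 fold change −0.79, SE 0.35, edgeR adjusted p 0.133). The remaining products, miR-1019-5p, miR-1019-3p and miR-1020-5p, had at most 5 counts in a library.

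The 8 hairpins that span a whole intron have 11 listed products. Of these, 9 had at least 1 count and 4 could be tested, and miR-62 held 66.2% of their summed counts. Besides miR-62 and miR-1020-3p, the tested ones were both arms of mir-4816, which sits in T09B4.2. miR-4816-5p was at 4.91 to 11.3 CPM in cadmium libraries and 12.3 to 13.4 CPM in control libraries, groups that did not overlap (log2 fold change −0.62, SE 0.33, edgeR adjusted p 0.209). The same held for 38.5% of all tested miRNAs, and for 20.7% in the lower direction. miR-4816-3p was at 4.02 to 6.80 CPM in cadmium libraries and 6.18 to 6.85 CPM in control libraries, which overlapped (log2 fold change −0.24, SE 0.32, edgeR adjusted p 0.616). Thus 0 of the 4 tested products passed the threshold, against 21.6% of all tested miRNAs. All 4 had a negative log2 fold change under each of the 4 scalings, with a median of −0.36 with TMM. Over all tested miRNAs the median was 0.0039 with TMM, where about as many changes were negative as positive, and −0.16 with library totals. The 4 products include both arms of mir-4816, and the scalings share the same libraries. This set was formed from the annotation after the members' values were known, and no test was made of it.

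miRNAs of hairpins inside an intron on the host's strand, the position of mir-50 and mir-90, numbered 44 among those tested. Of these, 4 were called higher and 2 lower at an adjusted p of 0.05 in edgeR, where 9.62% of all tested miRNAs were higher and 12% lower, with a median log2 fold change of −0.011.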

How the data were processed

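Small RNA libraries were made from TRI reagent extracts with a multiplexed New England Biolabs kit and run on an Illumina NextSeq, per the labels' protocols. The deposited files hold whole-number counts per mature miRNA and CPM values, 1 file of each per library. Per the file headers and values, the authors' CPM is each count scaled to the library's total of listed miRNAs. Per the submitters' processing notes, cutadapt 3.4, Bowtie2 2.4.2 and the WBcel235 build were among the tools and builds used. Their roles, the counter and the miRNA annotation are not given in the sources used here. 12 columns of whole-series tables matched no sample label and were not used.

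In R 4.3.3, filterByExpr of edgeR 4.0.16 kept 208 of 437 miRNAs, holding at least 99.985% of each library's counts. TMM scaling and the quasi-likelihood F test (two-sided, no covariates) compared 3 cadmium with 3 control libraries, with Benjamini-Hochberg adjustment over the 208. The SE was derived from the log2 fold change and its F statistic. The floor is 3 counts, or 0.761 to 1.60 CPM. Arm ratios used log2 of counts plus 0.5 and limma 3.58.1, for hairpins in which each arm averaged 10 counts or more. Ratios between members had the same constant. DESeq2 1.42.0, other scalings, no filter, limma on deposited CPM, a replicate block and leaving out each library were the alternatives. The procedures were tested on simulated data with planted changes much larger than those of the members, so power for changes of the members' size was not tested.

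Named miRNAs were the members, their opposite arms, listed products of mir-1018 to mir-1020, the 3 most correlated with each member and its neighbours in abundance. Other miRNAs sharing the seed were to be named as well, but mature sequences were not used here. miR-4816 came in through the annotation, and miR-44-3p and miR-45-3p through their equal values. Members, lists and tests were chosen with earlier results of these data known. Positions are from Ensembl release 115, matched by name for 424 names. The WBcel235 build is the same, but the count files carry no coordinates.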

Additional observations from a re-analysis of the deposited data

How the results depend on the processing

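Over the 3 members and 15 alternatives each, 42 of 45 log2 fold changes kept their direction, and none of the 45 passed an adjusted p of 0.05. The 3 that reversed were those of miR-90-3p with library totals (−0.058) and in limma on the authors' CPM, on the log2 scale with a pseudocount of 1 (−0.022) or 0.1 (−0.022), which all keep library totals, so that the median of all tested miRNAs is −0.16, −0.19 and −0.20. With 1 library left out, the log2 fold change ran from −0.24 to −0.081 for miR-50-5p, from −0.42 to −0.12 for miR-62 and from 0.020 to 0.36 for miR-90-3p. The log2 ratios between members kept their sign with 1 library left out. They ran from −0.19 to −0.033 for miR-62 to miR-50-5p, −0.74 to −0.31 for miR-62 to miR-90-3p and 0.28 to 0.55 for miR-90-3p to miR-50-5p. Their other alternatives, a constant of 1 and a replicate block, could hardly move these estimates and so say nothing of their stability. The mir-90 arm ratio ran from −0.57 to 0.020, reversing without cadmium replicate 3, and miR-90-5p ran from −0.53 to 0.23, reversing without control replicate 1. The difference in the family's share of all counts ran from −0.45 to 0.022 percentage points.

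The number of miRNAs called over the whole table, 45, ran from 22 to 52 with 1 library left out, the lowest when control replicate 3 was dropped. It was 27 when cadmium replicate 2 was dropped, and 29 for each of control replicate 1 and cadmium replicate 3. No member was called in any of these fits. The cause was not tested. With DESeq2 size factors, 52 were called, and with library totals 39, of which 9 were higher and 30 lower, against 20 and 25. Deviations of libraries that share a replicate number had correlations of −0.044, −0.29 and −0.30, which gives no sign of pairing. With the replicate block, 17 miRNAs were called, and the members had log2 fold changes of −0.20 (miR-50-5p), −0.32 (miR-62) and 0.17 (miR-90-3p). The depth of miR-50-3p, at 0 to 9 counts, allows no comparison.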
